A study of Saccharomyces cerevisiae with 6 samples.

Results

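OPI1, INO2, INO4, SCS2, PAH1, NEM1 and DGK1 encode the factors that set the transcription of phospholipid genes in budding yeast and the enzymes that set the level of phosphatidic acid. They were chosen by name, and each of the 7 genes had 1 probe set among the 5449 genes tested. Their signal was compared between 3 nab2-1 mutant samples and 3 wild type samples, with 1 Affymetrix yeast array per sample. NAB2 is an essential gene for a nuclear RNA-binding protein of mRNA tails. Per the labels, the wild type was strain W303-1A. The mutant was a W303-1A strain whose chromosomal NAB2 had been replaced with HIS3 and whose nab2-1 allele sat on a LEU2 plasmid with a centromere (CEN). Both were grown to exponential phase at 30 °C in YPD, a rich medium. The plasmid and both markers are present in all 3 mutant samples and no wild type sample, so their effects and that of the allele cannot be told apart. Whether a group's samples were separate cultures is not in the labels, so the p-values rest on a spread that may be technical.

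Phosphatidic acid is both the precursor of phospholipids and a signal in this pathway. Ino2 and Ino4 bind as a heterodimer of basic helix-loop-helix proteins to the inositol-responsive element in the promoters of phospholipid genes, and activate them. Opi1 represses the same genes through Ino2. When phosphatidic acid is plentiful, Opi1 is held at the endoplasmic reticulum by that lipid together with the membrane protein Scs2, and the genes are on. When phosphatidic acid is used up, Opi1 enters the nucleus. Pah1 converts phosphatidic acid to diacylglycerol once it has been dephosphorylated by the Nem1-Spo7 complex, and Dgk1 catalyses the reverse step. INO2 and OPI1 themselves carry the inositol-responsive element, so the activator and the repressor are also targets of the pathway.

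All differences are nab2-1 minus wild type on the log2 scale, ± SE with n = 3 arrays per group, and a gene was called when its limma p after Benjamini-Hochberg adjustment over all genes was below 0.05. Array correlations across genes were 0.994 to 0.998 within a group and 0.940 to 0.947 between groups. The strains differed widely, since 30.2% of all genes were called higher and 37.2% lower. Genes of chromosomes I, XI and XVI had median differences of 0.74, 0.77 and 0.75, whereas no other chromosome's median was outside -0.14 to -0.08. This shift goes with the mutant group, so its effects and those of the allele cannot be told apart either. Values relative to chromosome medians remove only the offset of a gene's own chromosome. None of the 7 genes lies on I, XI or XVI (0 of 7), and on the 13 other chromosomes 43.2% of genes were called lower and 19.8% higher. NAB2 rose by 1.35 ± 0.07 (adjusted p = 4.9e-06), but the position of its probes relative to the lesion is unknown here, so this checks nothing about the labels. W303-1A is known as a MATa strain, yet the 4 MATalpha-specific genes measured had mean log2 signals of 12.3 to 13.9 in the wild type and 12.7 to 14.1 in nab2-1. These were far above 4.27, the level that 95% of the probe sets taken as those of the other yeast on the array stayed under. The 7 MATa-specific genes lay at 6.50 to 9.08 in the wild type and 7.02 to 10.05 in nab2-1, and 0 of the 11 markers was at the other-species level. These levels go against a MATa type in both groups. All 7 MATa-specific genes rose (log2 of the summed signal 10.59 to 10.70 in the wild type arrays and 11.95 to 12.10 in nab2-1). Of the 4 MATalpha-specific genes 3 were called higher and 1 lower. Their summed signal was 15.07 to 15.11 in the wild type arrays and 15.28 to 15.32 in nab2-1. The part of these differences in the results below was not tested.

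The 4 transcription regulators all had less signal in nab2-1, and they fell by unequal amounts. OPI1, the repressor gene, fell most and kept 33.8% of its wild type signal. The activator genes INO2 and INO4 kept 49.6% and 62.8%. SCS2, the gene of the membrane anchor, kept 82.4%. Of the genes for phosphatidic acid turnover, PAH1 and DGK1 were not called and NEM1 was called only narrowly. In all, 5 of the 7 genes were called lower and 0 higher, where 37.2% of all tested genes were called lower. Relative to chromosome medians 4 of the 7 were called lower and 0 higher, against 31.8% and 29.6% of all genes, and with the arrays scaled to spiked poly(A) controls 3 were lower, against 11.2%. OPI1 and INO2 were among the genes called at least 2-fold lower, which made up 3.96% of those tested. The spiked controls' mean log2 signal was 7.28, 7.12 and 7.52 on the wild type arrays and 7.06, 7.06 and 6.97 on the nab2-1 arrays. All genes of an array share that offset, which the gene-wise test treats as independent between genes. The p-values and call counts under this scaling are therefore descriptive only.

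**Figure D1:**
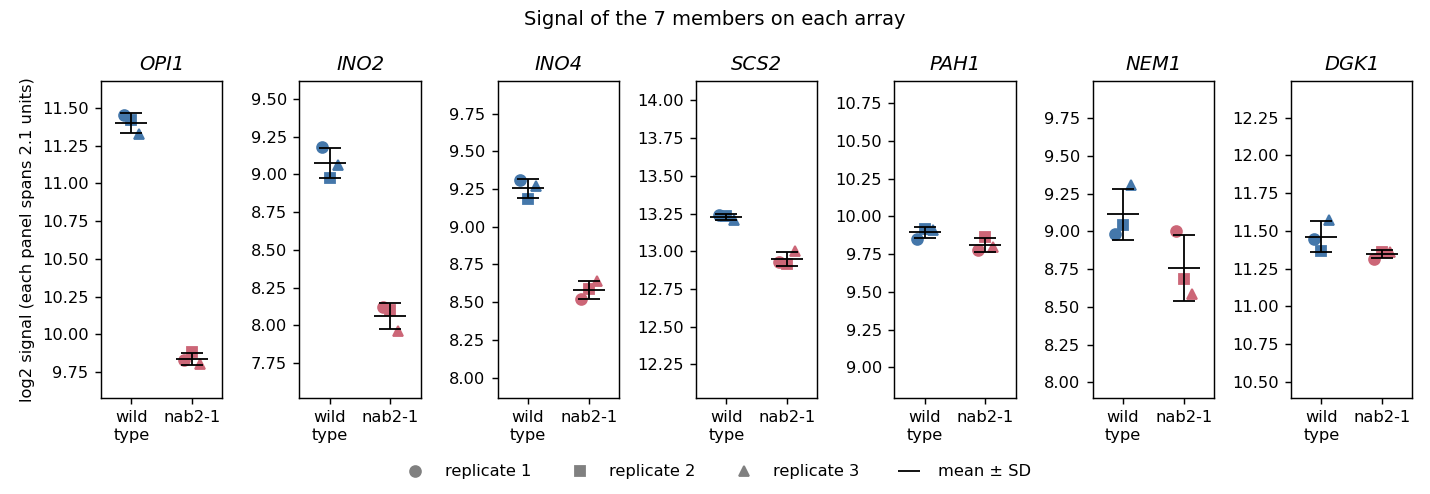
Log2 signal of each of the 7 genes on every array, with the wild type in blue, nab2-1 in red, 1 symbol per replicate number and the mean ± SD in black; the axis of every panel spans the same 2.1 log2 units. OPI1, INO2, INO4 and SCS2 are lower on all 3 nab2-1 arrays, PAH1 and NEM1 overlap between groups, and DGK1 is separated by less than the spread of its wild type arrays.

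OPI1 encodes the repressor, and it is known in yeast for the Opi- phenotype of its mutants, which overproduce and excrete inositol. Its log2 signal was 9.83, 9.88 and 9.80 on the 3 nab2-1 arrays and 11.45, 11.42 and 11.33 on the wild type arrays. Every mutant value lay far below every wild type value, with SDs of 0.04 (nab2-1) and 0.06 (wild type). The difference was -1.56 ± 0.05 (95% interval -1.69 to -1.44, adjusted p = 9.4e-07), or 2.96-fold lower. Only 66 of the 5449 genes tested had a more negative difference. Relative to the median of chromosome VIII the difference was -1.46, and with the spiked controls it was -1.29.

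INO2 encodes the subunit of the activator that carries its activation domains. Its log2 signal was 8.12, 8.10 and 7.96 in nab2-1 and 9.18, 8.98 and 9.07 in the wild type. The groups did not overlap, as was the case for 73.9% of all genes, and the gap between them was several times the spread within either. INO2 fell by 1.01 ± 0.07 (95% interval -1.18 to -0.85, adjusted p = 1.5e-05), or 2.02-fold. A more negative difference was measured for 204 genes. Relative to the median of chromosome IV the INO2 difference was -0.90, and with the spiked controls it was -0.74.

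INO4 encodes the partner subunit, without which Ino2 does not bind DNA. Its values were 8.52, 8.59 and 8.64 in nab2-1 and 9.31, 9.18 and 9.27 in the wild type. All mutant arrays were again below all wild type arrays. The fall was 0.67 ± 0.06 (95% interval -0.80 to -0.54, adjusted p = 3.3e-05), or 1.59-fold. Scaled to the spiked controls the difference was -0.40 (adjusted p = 0.021).

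SCS2 encodes a VAP protein of the endoplasmic reticulum that anchors Opi1 and other proteins with an FFAT motif. Its values were 12.93, 12.91 and 13.004 in nab2-1 and 13.24, 13.23 and 13.21 in the wild type. The groups were close but did not overlap. SCS2 fell by 0.28 ± 0.05 (95% interval -0.39 to -0.17, adjusted p = 0.0013), or 1.21-fold. Of all genes, 45.6% had a smaller absolute difference, so a change of this size was ordinary on these arrays. Relative to the median of chromosome V it was at -0.16 (adjusted p = 0.020). Scaled to the spiked controls its difference was -0.0041 (adjusted p = 0.98). It was not called there, though calls under this scaling are descriptive only. SCS2 kept its direction and call under 15 of 16 alternatives.

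PAH1 encodes the phosphatidic acid phosphatase. Its values of 9.78, 9.86 and 9.80 in nab2-1 lay partly among the 9.85, 9.92 and 9.91 of the wild type. The difference of -0.08 ± 0.05 did not pass (adjusted p = 0.17), and its 95% interval ran from -0.19 to 0.03. Its sign depended on the scaling, with 0.06 relative to the median of chromosome XIII and 0.19 with the spiked controls.

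DGK1 encodes the diacylglycerol kinase, which uses CTP. It was at 11.31, 11.36 and 11.36 in nab2-1 and 11.44, 11.37 and 11.57 in the wild type. The highest mutant array and the lowest wild type array were almost equal, and the wild type arrays differed among themselves by more than that gap. The difference was -0.12 ± 0.06 (95% interval -0.26 to 0.03, adjusted p = 0.13), and it was -0.02 relative to the median of chromosome XV and 0.16 with the spiked controls.

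NEM1 encodes the catalytic subunit of the phosphatase that activates Pah1. It was at 9.002, 8.69 and 8.59 in nab2-1 and 8.99, 9.05 and 9.31 in the wild type. The first mutant array lay just above the lowest wild type array, so the groups overlapped. NEM1 was also the most variable of the 7 genes, with SDs of 0.22 in nab2-1 and 0.17 in the wild type, which were larger than the SDs of 93.7% and 92.4% of all genes. It was called lower at -0.35 ± 0.13 (95% interval -0.65 to -0.06, adjusted p = 0.039). The call did not hold without nab2-1 replicate 2 (-0.32, adjusted p = 0.11), nab2-1 replicate 3 (-0.27, adjusted p = 0.12), wild type replicate 2 (-0.39, adjusted p = 0.061) or wild type replicate 3 (-0.26, adjusted p = 0.12). Relative to the median of chromosome VIII, where OPI1 also lies, it was at -0.25 (adjusted p = 0.13).

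**Figure D2:**
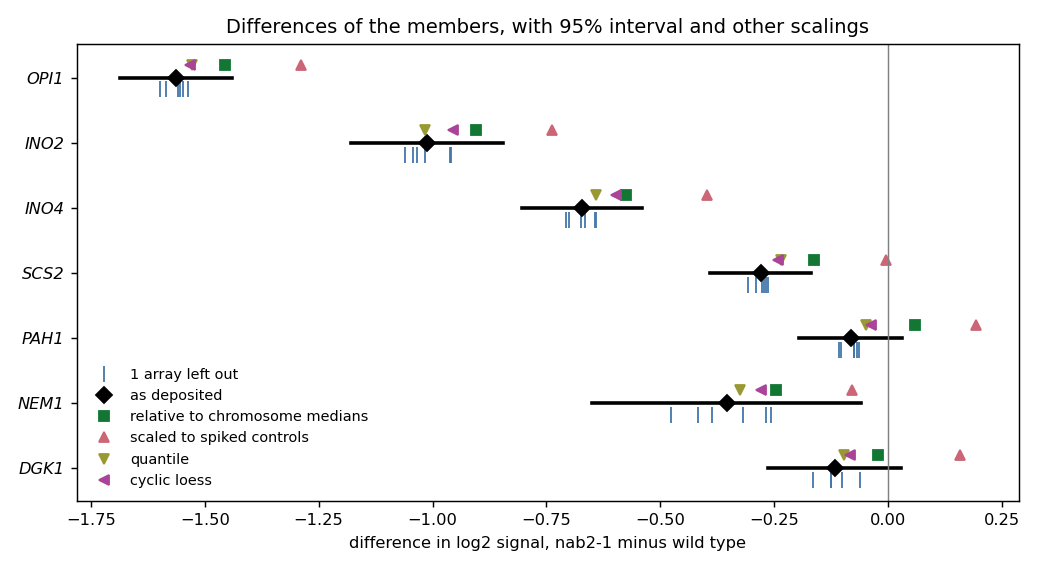
Difference in log2 signal (nab2-1 minus wild type) of each gene, with the deposited values as black diamonds on their 95% limma interval, 4 other scalings as coloured symbols above and the 6 fits with 1 array left out as blue ticks below. OPI1, INO2 and INO4 stay below 0 under all of them, SCS2 reaches -0.0041 with the spiked controls, and PAH1 and DGK1 lie on both sides of 0.

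To compare members within an array, where any factor common to that array cancels, the log2 values of 5 functional pairs were subtracted on each array and the groups were compared with an exact two-sided permutation test. With 3 arrays against 3 the smallest p it can give is 0.1, so no pair could pass 0.05. Only the change of each balance between the groups is read, because probe sets are not calibrated against each other. Each shift equals the difference between the differences of its 2 genes, so the pairs add no independent evidence. Single genes separated the groups in 73.9% of cases, and the share for arbitrary pairs was not computed. The mRNA signals of activator and repressor were compared as INO2 minus OPI1, which was -1.71, -1.78 and -1.84 in nab2-1 and -2.27, -2.44 and -2.26 in the wild type. This mRNA balance moved by 0.55 towards INO2, or 1.46-fold, with no overlap of the arrays (exact p = 0.1, 0.125 adjusted over the 5 pairs). Both signals fell, and OPI1 fell more. Protein levels and the location of Opi1 were not measured, so the shift does not give the activity of either factor.

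The 2 subunits of the activator were compared in the same way. INO2 minus INO4 was -0.40, -0.49 and -0.68 in nab2-1 and -0.13, -0.21 and -0.20 in the wild type, a shift of -0.34 (exact p = 0.1, adjusted 0.125). OPI1 minus SCS2, the repressor against its membrane anchor, went from -1.83 ± 0.05 (SD) in the wild type to -3.11 ± 0.08 in nab2-1. That shift of -1.28, or 2.44-fold, was the largest of the 5 pairs (exact p = 0.1, adjusted 0.125). The phosphatase and kinase of the opposite reactions did not separate the groups. PAH1 minus DGK1 was -1.54, -1.50 and -1.56 in nab2-1, all inside the wild type range of -1.66 to -1.45, and the difference was 0.04 (exact p = 0.6).

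**Figure D3:**
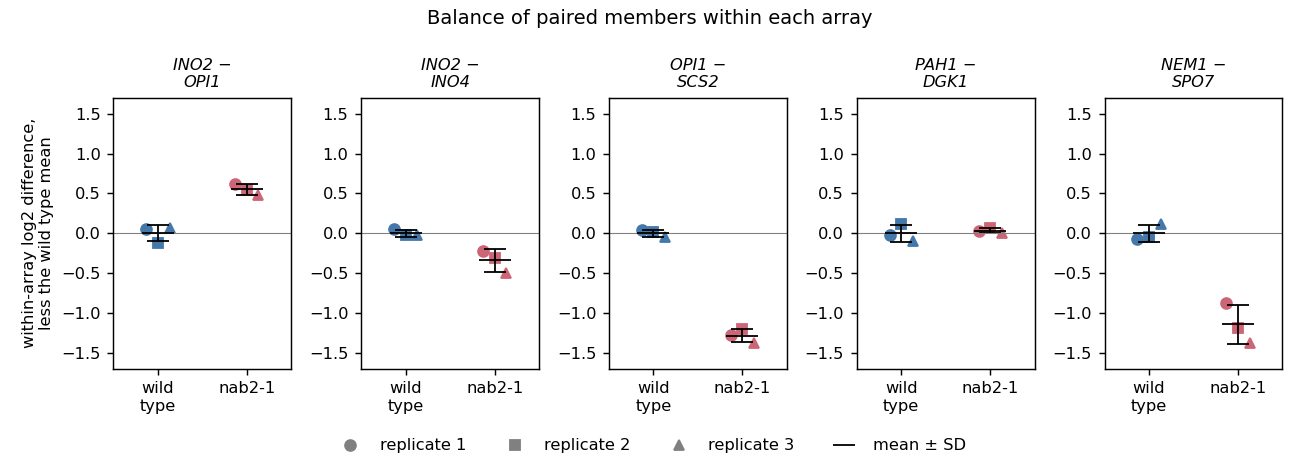
Within-array differences in log2 signal for the 5 pairs, each shown less its wild type mean, with 1 symbol per replicate number and the mean ± SD in black. The nab2-1 arrays lie apart from the wild type arrays in every pair except PAH1 minus DGK1, while 73.9% of all single genes also separated the groups.

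The subunits of the Nem1-Spo7 complex had differences of opposite sign. SPO7, the regulatory subunit gene, lies on chromosome I and rose by 0.79 ± 0.05 (adjusted p = 1.3e-05). Relative to the median of that chromosome its difference was 0.06 (adjusted p = 0.39). NEM1 minus SPO7 was -1.40, -1.71 and -1.90 in nab2-1 and -0.60, -0.57 and -0.40 in the wild type, a shift of -1.15 (exact p = 0.1, adjusted 0.125). Relative to the chromosome medians the shift was -0.30.

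The genes on which these regulators act were then examined. Of 16 genes listed from general knowledge as targets of Ino2 and Ino4, 15 were called lower and 1 higher. Their median difference was -1.41 where that of all genes was -0.05. With the spiked controls, which moved the median of all genes to 0.23, 12 of the 16 were lower and 1 higher (median -1.14). The counts of the lists below are read against the 37.2% of all genes called lower and 30.2% called higher. Counts with the spiked controls, here and below, are read against 611 lower (11.2%) and 2109 higher of the 5449 genes. INO1, the inositol-3-phosphate synthase gene and the usual readout of the pathway, was at 8.78, 8.85 and 8.84 in nab2-1 and 10.89, 11.11 and 11.06 in the wild type, 4.59-fold lower (-2.20 ± 0.07, adjusted p = 7.9e-07). OPI3, a phospholipid methyltransferase gene of phosphatidylcholine synthesis, was 6.32-fold lower. Differences in the list ran from -2.66 to 0.37. The 1 higher gene of the list was PIS1, the phosphatidylinositol synthase gene, which is named here after its value was seen. It rose by 0.37 ± 0.05 (adjusted p = 0.00055). Against the median of its chromosome, XVI, it was lower, at -0.39 (adjusted p = 0.00057).

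Other enzymes that make or use phosphatidic acid changed in both directions, with 7 of 13 lower and 3 higher (median -0.34). With the spiked controls 5 were lower and 4 higher (median -0.06). Relative to chromosome medians 8 were lower and 1 higher, against 31.8% and 29.6% of all genes. CDS1, which turns phosphatidic acid into CDP-diacylglycerol, fell by 1.25 ± 0.05 (adjusted p = 1.4e-06), and the lysophospholipid acyltransferase gene ALE1 fell by 1.01 ± 0.07 (adjusted p = 1.6e-05). The 3 that rose, named after their values were seen, were the acyltransferase gene LOA1, the phospholipase D gene SPO14 and the phosphatase gene APP1, at 0.69, 0.68 and 0.26. Against the medians of their chromosomes, XVI and XI, LOA1 and SPO14 stood at -0.06 and -0.08, while APP1 was at 0.38 against that of XIV. Of 12 genes of triacylglycerol synthesis and lipid droplets, into which diacylglycerol from Pah1 flows, 7 were lower and 2 higher (median -0.47), and with the spiked controls 3 were lower and 2 higher (median -0.20). The lipid droplet coat gene PLN1 (PET10) rose by 1.68 ± 0.13 (adjusted p = 2.1e-05), or 3.21-fold; it lies on chromosome XI, and against that chromosome's median it was at 0.92 (adjusted p = 0.00064). SCS3, a gene of lipid droplet formation, was at -0.74 ± 0.04. The triacylglycerol lipase gene TGL4, also on XI and named after its value was seen, was at 0.74 ± 0.05, and relative to its chromosome it was at -0.03.

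**Figure D4:**
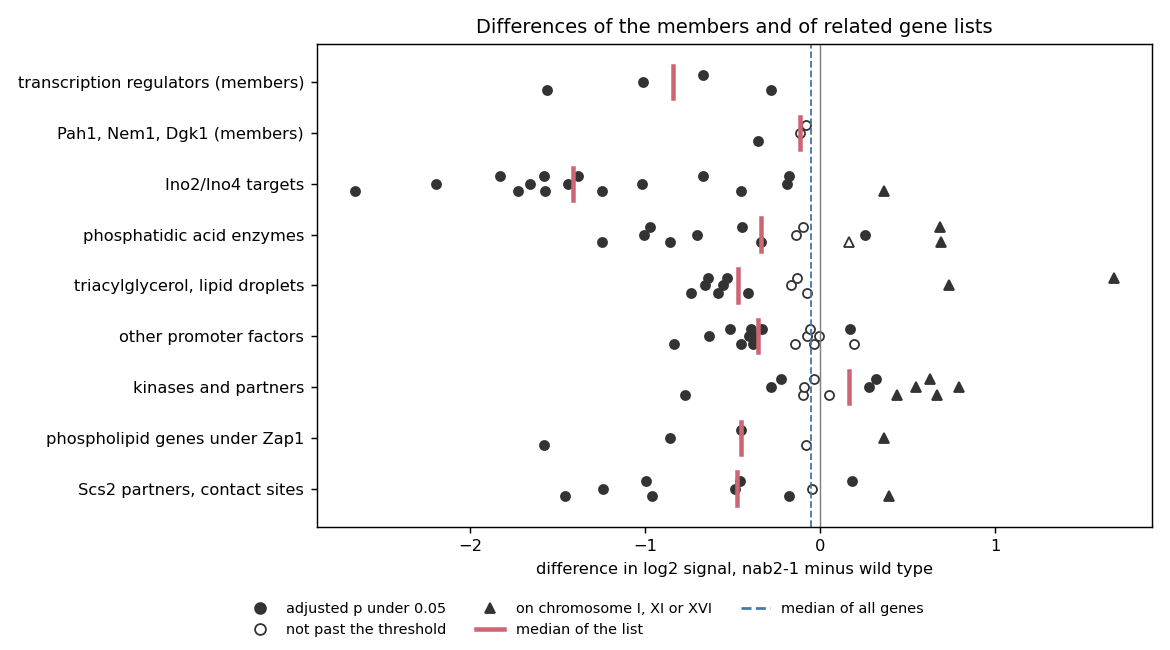
Difference in log2 signal (nab2-1 minus wild type) of the 7 genes and of related gene lists, 1 point per gene, filled where called and triangular on chromosomes I, XI and XVI; red bars are list medians and the dashed blue line is the median of all genes. The 4 transcription regulators and 15 of the 16 genes listed as Ino2/Ino4 targets lie below 0, while PAH1 and DGK1 lie near the median of all genes.

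Proteins that act on Pah1, Nem1 or Opi1 formed the only one of these lists with a median above 0, at 0.17, with 7 of 14 genes higher and 3 lower. Of the 14, 5 lie on chromosomes I, XI and XVI. After each gene was lowered by its chromosome's median, 2 were higher and 3 lower and the list median was -0.04. The spiked controls gave 7 higher and 1 lower (median 0.44), where 2109 of all 5449 genes were higher and 611 lower (median 0.23). BCY1, the inhibitory subunit of protein kinase A, fell by 0.77 ± 0.05 (adjusted p = 1.0e-05). ICE2, which binds the Nem1-Spo7 complex, fell by 0.22 ± 0.04 (adjusted p = 0.0022), and the protein kinase C gene PKC1, named after its value was seen, fell by 0.28 ± 0.06 (adjusted p = 0.0046). Neither fall was called relative to the chromosome medians (-0.10 and -0.16) or with the spiked controls (0.05 and -0.0050).

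Several regulators of the members' own transcription were measured. Zap1, the zinc-responsive activator, is known to induce PAH1 and other phospholipid genes when zinc is low, and ZAP1 fell by 1.77 ± 0.06 (adjusted p = 8.3e-07). Of the 5 phospholipid genes under Zap1, the choline kinase gene CKI1 was at -1.58, the phosphatase gene DPP1 at -0.86, the ethanolamine kinase gene EKI1 at -0.45, PIS1 at 0.37 and PAH1 at -0.08. EKI1, named after its value was seen, lost its call with the spiked controls (-0.18, adjusted p = 0.33). This list overlaps that of the Ino2/Ino4 targets, where EKI1 and PIS1, for example, are counted as well. Reb1 is known to activate DGK1, and REB1 fell by 0.64 ± 0.05 (adjusted p = 3.3e-05). UME6, whose product recruits the Sin3 and Rpd3 repressor to INO1, was at -0.03 ± 0.09 (adjusted p = 0.75), and its sign depended on the scaling (0.08 relative to chromosome IV and 0.24 with the spiked controls). Of 16 other factors that act at inositol-responsive promoters, REB1 and UME6 included, 9 were lower and 1 higher, with a median of -0.35. With the spiked controls 2 were lower and 2 higher (median -0.08). SNF4, a subunit gene of the Snf1 kinase, was at -0.83 ± 0.06. The 1 higher gene, SNF2, named after its value was seen, was at 0.17 ± 0.06 (adjusted p = 0.047), and this call did not hold without nab2-1 replicate 2 (0.14), nab2-1 replicate 3 (0.15), wild type replicate 1 (0.16) or wild type replicate 3 (0.14).

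Around Scs2, genes of contact sites between the endoplasmic reticulum and other membranes were examined, and 7 of 10 were lower and 2 higher, with a median of -0.47. With the spiked controls 4 were lower and 2 higher (median -0.20). The tricalbin genes TCB1 and TCB3, which tether the endoplasmic reticulum to the plasma membrane, fell by 1.46 ± 0.07 (adjusted p = 3.3e-06) and 1.24 ± 0.06 (adjusted p = 2.9e-06). SCS22, the paralogue of SCS2, was at -0.18 ± 0.06 (adjusted p = 0.026), and its call did not hold without nab2-1 replicate 2 (-0.19), nab2-1 replicate 3 (-0.15), wild type replicate 1 (-0.18) or wild type replicate 3 (-0.14). Relative to the median of chromosome II SCS22 was at -0.05 (adjusted p = 0.46). Both genes that rose are named after their values were seen. The oxysterol-binding protein gene SWH1, on chromosome I, was at 0.40 and at -0.34 relative to its chromosome. NVJ1, a gene of the junction between nucleus and vacuole, was at 0.18, a call that did not hold without nab2-1 replicate 1 (0.14), nab2-1 replicate 2 (0.18), wild type replicate 1 (0.14) or wild type replicate 2 (0.20).

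Among all tested genes, those most like OPI1 over the 6 arrays were PAN5, a pantothenate synthesis gene, and the amino acid permease genes AGP1 and TAT1, with Pearson correlations of 0.9997, 0.9993 and 0.9992. Their differences were -0.54, -1.90 and -1.12. These correlations describe the step between the groups, which all 6 arrays share, and 283 of the other 5448 genes had a correlation above 0.99 with OPI1.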

How the data were processed

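The deposited table holds 1 log2 value per probe set and array for 10928 probe sets, and the authors made it with GCOS, RMA and limma, per the submitters' processing notes, which give no versions or order; these name no genome build. Values were used as deposited. Probe sets were named through the platform annotation and RefSeq's S288C gene table. Of all probe sets, 5498 had 1 yeast gene, and 1 had several and was not named. Another 1746 were annotated outside that table and were taken as those of the other yeast on the array. The remaining probe sets were assigned to neither yeast. The highest-mean probe set stood for a gene. The two-sided test between groups was limma's (version 3.58.1, R 4.3.3, lmFit then eBayes), and p-values were adjusted by Benjamini-Hochberg over 5449 genes. Exact permutation tests used scipy 1.17.1 and figures matplotlib 3.10.9 (Python 3.11.15).

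Named genes are the 7 members, NAB2, INO1, SPO7, SCS22, ICE2, ZAP1, REB1, UME6, the 2 largest called, non-overlapping differences of each list, and the 3 genes most correlated with the member that differed most. In addition, TGL4, PIS1, EKI1, LOA1, SPO14, APP1, SNF2, PKC1, SWH1 and NVJ1 were named after their values were seen. The members, the lists (general knowledge), the tests and the alternatives were chosen with earlier results of these data known. The number of arrays limits precision. Replicate numbers did not pair the samples, and alternatives were other normalizations (24 spiked control probe sets of Bacillus genes among them), chromosome medians, array weights, trend and robust variances, a replicate block, a dim filter, a stricter threshold and each array left out. No sequences or promoter motifs were analysed here.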

Additional observations from a re-analysis of the deposited data

How the results depend on the processing

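OPI1, INO2 and INO4 kept their direction and call under every alternative run for them, at -1.60 to -1.29, -1.06 to -0.74 and -0.71 to -0.40. INO2, INO4 and NEM1 were below the filter on the dimmest 25% of genes and have no value there, so the members called lower numbered 2 under that filter. Scaled to the spiked controls, 3 members and 611 genes were lower (5 and 2028 as deposited), and the differences were -0.0041 for SCS2, 0.19 for PAH1, -0.079 for NEM1, 0.16 for DGK1, 0.10 for SCS22, 0.052 for ICE2 and 0.24 for UME6. The median of all genes was then 0.23, and the amounts of control added are not given in the sources used here. Calls under this scaling are descriptive only, because all genes of an array share its offset. Relative to chromosome medians PAH1 was at 0.059, NEM1 at -0.25, UME6 at 0.076, TGL4 at -0.028, PIS1 at -0.39, LOA1 at -0.057, SPO14 at -0.083 and SWH1 at -0.34. The NEM1 call was lost with quantile normalization (-0.32, adjusted p = 0.056) and cyclic loess (-0.28, 0.091) and at a threshold of 0.01 (-0.35, adjusted p = 0.039). The SCS22 call was also lost with quantile normalization (-0.14, adjusted p = 0.063) and cyclic loess (-0.11, 0.13). UME6 was at 0.024 with cyclic loess and 0.044 with array weights. With 1 array left out, the members' differences ranged from -1.60 to -1.54 for OPI1, -1.06 to -0.96 for INO2, -0.71 to -0.64 for INO4, -0.31 to -0.26 for SCS2, -0.11 to -0.06 for PAH1, -0.48 to -0.26 for NEM1, and -0.16 to -0.06 for DGK1, and 4 to 5 members were called lower. UME6, not a member, ranged from -0.087 to 0.0495. PAH1 minus DGK1 then ranged from -0.013 to 0.095. The cause of these changes was not tested. Deviations of same-numbered arrays correlated at -0.19, 0.19 and -0.14, so the numbers do not pair the arrays; with the replicate block NEM1 was no longer called (-0.35, adjusted p = 0.078), nor were SCS22, SNF2 and NVJ1, and the other members kept their calls. Of 511 values of the 32 other named genes under the alternatives, 471 kept direction and call, 27 kept the direction and lost the call, and 13 changed sign.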
